A study of Mus musculus with 39 samples.

Results

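The forkhead (Fox) genes encode transcription factors that share a winged-helix DNA-binding domain. The members were the rows of the deposited table of counts per transcription start site (TSS) whose gene symbol is Fox followed by a letter from a to s and a number. This rule gave 44 of 24045 rows and used no measured value. From general knowledge of where each gene acts, 14 were listed as expressed in neurons, 29 as genes of other lineages, and Foxm1, which drives mitosis in dividing cells, stood alone. Of the 14, 5 were listed as neuronal (among them Foxo6, Foxp1, Foxp2 and Foxp4) and 9 as broadly expressed (Foxj2, Foxj3, Foxk1, Foxk2, Foxn2, Foxn3, Foxo1, Foxo3 and Foxo4).

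As background, trimethylation of histone H3 on lysine 4 (H3K4me3) marks promoters that are active or poised. Trimethylation on lysine 27 (H3K27me3) is laid down by Polycomb repressive complex 2 and covers genes for transcription factors of lineages that a cell has not taken. FoxO factors are held out of the nucleus when insulin and IGF receptors signal through PI3K and AKT, and enter it when that signal is low. FoxP factors are repressors with roles in neuron differentiation, FoxA factors open chromatin in gut endoderm, and FoxC and FoxF factors act in mesoderm and mesenchyme.

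The data are chromatin immunoprecipitation sequencing (ChIP-seq) of granule cells, the most abundant neurons of the cerebellum, from C57Bl/6J mice aged 7, 12 or 21 postnatal days, called P7, P12 and P21. H3K4me3 was measured in 3, 2 and 2 libraries and H3K27me3 in 5, 4 and 5 libraries at the 3 stages in that order, with 18 input libraries. Per the labels' protocols, the P7 cells were progenitors taken from a Percoll gradient, and the P12 and P21 samples were nuclei sorted for the neuronal proteins NeuN and NeuroD1, with longer sonication. A comparison with P7 therefore also compares isolation methods, and stage and isolation cannot be told apart there. P21 and P12 share their isolation. Nothing in the labels says whether libraries of a group came from separate animals, so p-values measure the spread between these libraries.

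The H3K4me3 libraries held 431401 to 5653193 counts over TSS in total, and the H3K27me3 libraries 264093 to 2035801. In H3K27me3 the 95th percentile of the counts over their median was 5.00 to 12.9 at P12 and P21, against 22.1 to 45.0 at P7. Of the 5 granule progenitor markers (Atoh1, Gli1, Mycn, Ccnd2 and Mki67), 5 had less H3K4me3 and 5 more H3K27me3 at P21 than at P7. Of all starts, 14.4% were called lower in H3K4me3 and 25.4% higher in H3K27me3 (edgeR, adjusted p under 0.05). Of 9 granule cell markers, Neurod1 was listed at 0 in every library of both marks. In H3K4me3 at P21 against P7, 8 of the 9 were tested, and 2 were called higher and 5 lower. Over all starts 8.98% were called higher and 14.4% lower. Summed H3K4me3 over the 9 lay between 304.2 and 320.1 CPM (counts scaled to a common library total after edgeR's TMM correction of that total) at P21, against 412.7 to 634.7 CPM at P7. Over the 3 ependyma markers (Foxj1, Ccdc153 and Tmem212) it lay between 55.4 and 64.2 CPM at P21 and between 40.3 and 65.0 CPM at P7. In these bulk samples a change in the mix of cells and a change per cell cannot be told apart.

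Peaks differed between the listed groups of the family. A start was given a class from consensus regions, stretches covered by peaks in at least 2 libraries of a mark and stage, that touched the annotated gene start with 1 kb on either side. At P7, 13 of the 14 members expressed in neurons had an H3K4me3 peak. Of these, 7 had H3K4me3 alone, all of them listed as broadly expressed. The other 6 had both marks, Foxo6, Foxp1, Foxp2 and Foxp4 of the neuronal list among them. At P12 the peak was found at 9 of the 14 and at P21 at 11. H3K4me3 alone was found at all 3 stages at Foxj2, Foxj3, Foxk1, Foxn2, Foxn3 and Foxo3. Foxk2 and Foxm1 had it at P7 and P21 and neither mark at P12, and Foxo6 had both marks at P7 and P21 and H3K27me3 alone at P12. Of the 29 members of other lineages, 23 had an H3K27me3 peak at P7, 17 of them without H3K4me3. Over all 23985 starts with coordinates, 13.0% had both marks at P7, 33.9% H3K4me3 only and 14.8% H3K27me3 only.

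The H3K27me3 peaks of the other lineages stayed in place through the 3 stages. H3K27me3 alone was found at P7, P12 and P21 at 17 of the 29 members, among them Foxa1 and Foxa2 (endoderm), Foxb1 and Foxd3 (neural and neural crest precursors), Foxc2, Foxd1 and Foxf1 (mesoderm), Foxl2 (ovary) and Foxe3 (lens). In all 22 of 29 had an H3K27me3 peak at P12, and 22 at P21. The counts of 23, 22 and 22 at P7, P12 and P21 were equal when a peak was asked for in every library and when peaks that overlapped the matching input were dropped. The 6 members with neither mark at any stage were Foxi1 (inner ear and kidney), Foxn1 (thymus epithelium), Foxp3 (regulatory T cells), Foxr1 and Foxr2 (germ line), and Foxs1 (vessel wall). Another annotated start of Foxr2, chrX:153118788, had H3K27me3 alone at P7.

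**Figure D1:**
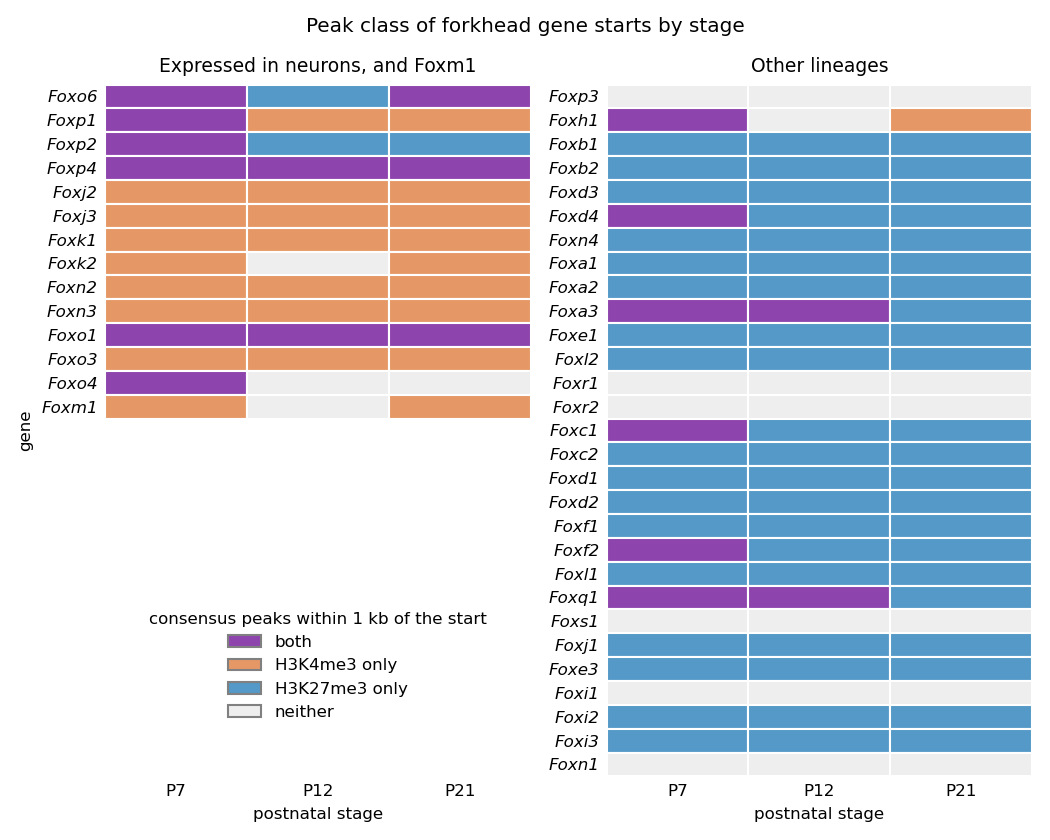
Peak class of forkhead gene starts (rows) at P7, P12 and P21 (columns), by consensus peaks within 1 kb of the start. H3K4me3 alone is found at all 3 stages in 6 members expressed in neurons, and H3K27me3 alone at all 3 stages in 17 members of other lineages.

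Both marks together were most frequent at P7. They were found at 12 of 44 members at P7 (27.3%), 4 at P12 (9.09%) and 3 at P21 (6.82%). Over all starts the same shares were 13.0%, 2.20% and 1.32%, so the share fell over all starts too. By this rule Foxo1 and Foxp4 had both marks at all 3 stages. The H3K27me3 region of Foxp4 did not hold the start at P7 or P12, and its peak was found in 4 of 5 libraries at P7, 2 of 4 at P12 and 3 of 5 at P21. The H3K27me3 region of Foxo1 did not hold the start at P21, when its peak was found in 2 of 5 libraries. Foxp2 lost the H3K4me3 consensus peak after P7. Foxp1 lost the H3K27me3 consensus peak, whose region did not hold the start at P7. Foxo4, with an H3K27me3 peak in 2 of 5 libraries at P7, had neither mark at P12 and P21. Foxc1, Foxd4 and Foxf2 lost the H3K4me3 consensus peak and kept the H3K27me3 peak. The P7 H3K4me3 region of Foxd4 did not hold its start. H3K4me3 counts at Foxc1 and Foxd4 were not called lower at P21 against P7, those at Foxf2 were too few for a test, and Foxd4 averaged 10.7 CPM at P7, 27.2 CPM at P12 and 24.97 CPM at P21. Foxa3 and Foxq1 had both marks at P7 and P12 and H3K27me3 alone at P21. The H3K4me3 region of Foxa3 held the start of Sympk, 838 bp away, and not that of Foxa3. An H3K4me3 consensus needed 2 of 3 libraries at P7 but 2 of 2 later. With a peak asked for in every library, both marks were found at 5 members at P7, 2 at P12 and 0 at P21, and without peaks that overlapped the matching input at 11, 2 and 1.

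The promoter sequence of members differed with their marks. RefSeq promoter entries (250 bases before to 50 after a start, GRCm38.p6) were matched for 28 of 44 members, and for 24 the entry began within 1 kb of the gene start. CG dinucleotides, the site of DNA methylation and the hallmark of CpG islands, were counted in each 300-base entry. The 4 members with H3K4me3 peaks only held 35 to 59 CG (Foxj2, Foxj3, Foxk2 and Foxo3). The 16 with an H3K27me3 peak at all stages held 5 to 33, with a median of 23.5, and the 4 with no peak held 6 to 16 (Foxi1, Foxn1, Foxp3 and Foxr1). Over 18001 promoters the median was 13, and at least 1 CG was found in 95.3% of them and 20 or more in 36.3%. By P7 class the medians over all promoters were 23 for H3K4me3 only, 23 for both marks, 10 for H3K27me3 only and 3 for neither. The searched letters are CG, which read the same on both strands.

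The 120 bases just before the start are shown for members of different peak classes. By consensus peaks at all 3 stages, Foxo1 had both marks, Foxd3 H3K27me3 alone and Foxj3 H3K4me3 alone. The other 2 members, Foxi1 and Foxp3, had no peak. They are given 5′ to 3′ on the gene's strand with each CG in capitals. They lie at chr3:52268217-52268336 (plus strand, Foxo1), chr4:99656179-99656298 (plus, Foxd3), chr4:119539541-119539660 (plus, Foxj3), chr11:34208090-34208209 (minus, Foxi1) and chrX:7579556-7579675 (plus, Foxp3) of GRCm38.p6. The stretch holds 14 CG in Foxo1, 11 in Foxd3, 19 in Foxj3, 3 in Foxi1 and 5 in Foxp3.
Foxo1: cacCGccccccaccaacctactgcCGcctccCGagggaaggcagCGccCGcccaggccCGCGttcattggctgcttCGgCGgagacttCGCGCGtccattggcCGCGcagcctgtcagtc
Foxd3: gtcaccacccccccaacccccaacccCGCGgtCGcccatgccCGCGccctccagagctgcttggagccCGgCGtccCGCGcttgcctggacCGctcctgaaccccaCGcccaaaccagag
Foxj3: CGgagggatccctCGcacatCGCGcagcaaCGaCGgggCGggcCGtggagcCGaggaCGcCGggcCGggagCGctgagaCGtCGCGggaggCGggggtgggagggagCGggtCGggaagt
Foxi1: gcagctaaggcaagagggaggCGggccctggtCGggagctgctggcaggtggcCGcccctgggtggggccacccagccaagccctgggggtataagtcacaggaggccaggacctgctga
Foxp3: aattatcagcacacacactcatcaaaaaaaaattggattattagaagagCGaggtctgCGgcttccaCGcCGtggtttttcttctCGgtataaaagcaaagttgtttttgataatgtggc

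H3K27me3 over the other lineages came as broad domains. The consensus region over their starts had a median width of 39555 bp at P7, 32041 bp at P12 and 40263 bp at P21, against 6357.5, 4673 and 5784 bp over all starts with a region at those stages. The region was wider than the median of all such starts at 23 of 23 members at P7, 21 of 22 at P12 and 21 of 22 at P21. The exception at P21 was Foxa3, at 5076 bp. Over members expressed in neurons the medians were 7907 bp at P7 (7 members), 6690 bp at P12 and 6651 bp at P21 (5 members each). A width moves with how much was called: consensus H3K27me3 covered 157.7 Mb at P7, 106.5 Mb at P12 and 181.5 Mb at P21.

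Several members shared a domain. The Foxc2 and Foxl1 starts lay in 1 region, of 59831 bp at P7 (chr8:121109184-121169014), 95634 bp at P12 and 98013 bp at P21. Foxd2 and Foxe3 shared 57903 bp at P7 with the antisense gene Foxd2os. Foxf1 shared its region with the noncoding gene Fendrr, Foxa1 with Ttc6, and Foxl2 with Foxl2os. Reads of such neighbours are not independent. The Foxj1 region, 6546 bp at P7 and 4661 bp at P12, measured 21785 bp at P21. The Foxo6 region measured 41301 bp at P7, 6690 bp at P12 and 6651 bp at P21.

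**Figure D2:**
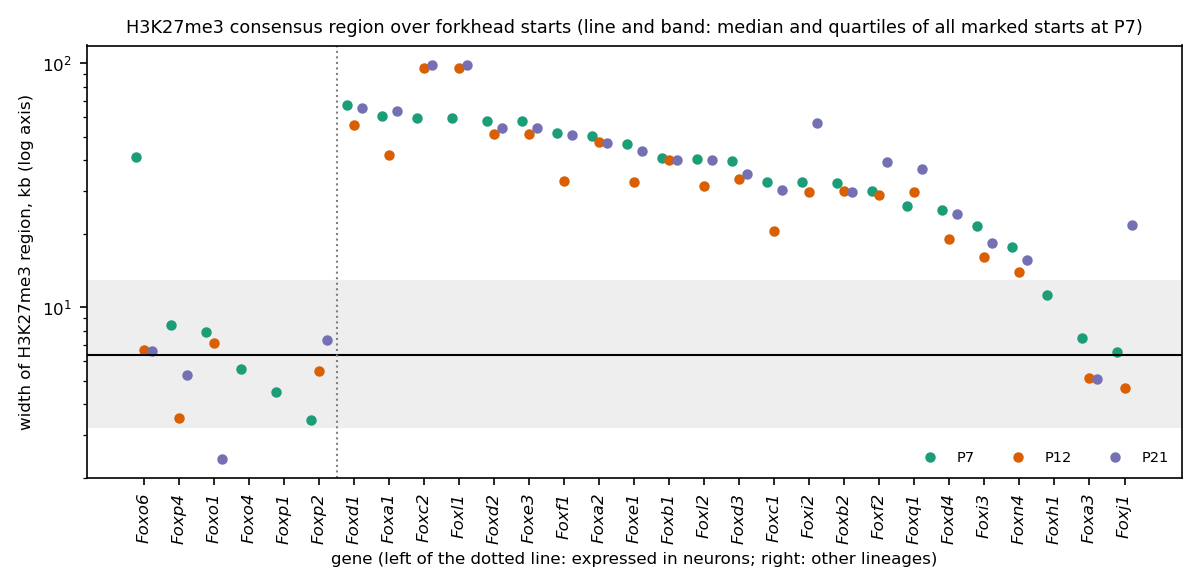
Width of the H3K27me3 consensus region over marked forkhead starts (log axis, kb) at P7, P12 and P21. The line and band give the median and quartiles over all marked starts at P7. Members of other lineages, right of the dotted line, lie above that median at P7.

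The counts gave the same order of groups. Median H3K4me3 over the 14 members expressed in neurons was 92.6 CPM at P7, 63.7 CPM at P12 and 77.3 CPM at P21, and over the 29 of other lineages 11.3, 16.4 and 20.9 CPM. For H3K27me3 the medians over members expressed in neurons were 12.5, 16.2 and 12.6 CPM, and over other lineages 756.4, 303.6 and 192.9 CPM. As a place in the ranking of all starts within a library, which needs no scaling, the other lineages had a median H3K27me3 percentile of 97.0 at P7, 98.0 at P12 and 96.9 at P21. Their median CPM was lower at each later stage, while their median rank stayed above percentile 96.

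**Figure D3:**
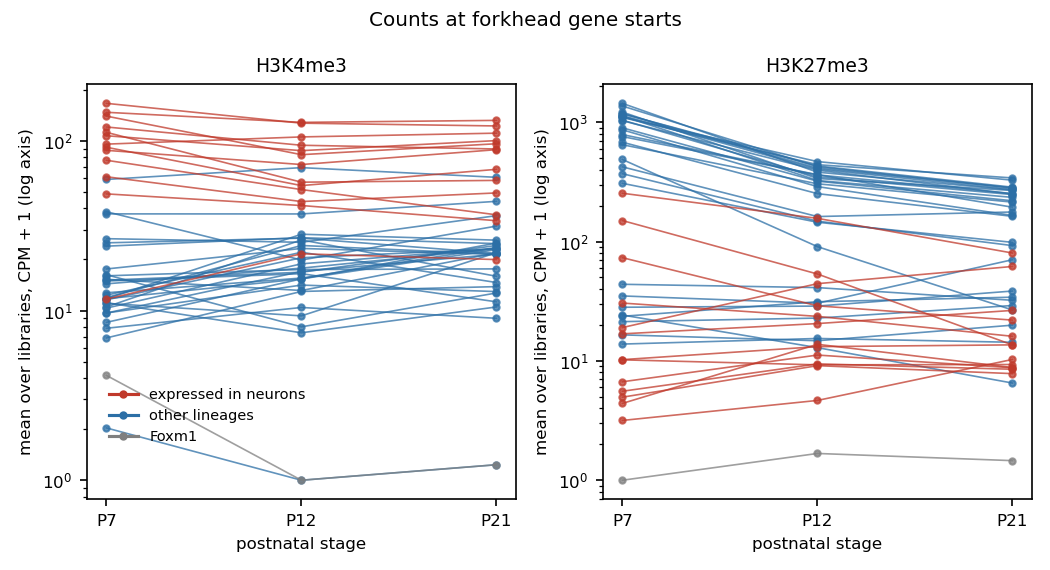
Mean counts of H3K4me3 (left) and H3K27me3 (right) at the forkhead starts by stage, as CPM + 1 on a log axis, 1 line per gene. Members expressed in neurons lie above most others in H3K4me3, and most members of other lineages lie above them in H3K27me3.

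In H3K27me3 at P21 against P7, 2 members rose and 27 fell of 37 tested, where 25.4% of all starts were called higher and 23.5% lower (edgeR, adjusted p under 0.05). Of the 29 other lineages, all of them tested, 1 rose and 22 fell. Of the members expressed in neurons 8 of 14 had enough counts for the test, and 1 rose and 5 fell. The median log2 change was -2.06 over the other lineages and -1.37 over the 8 tested members expressed in neurons, against 0.34 over all starts. These falls went with the level of the start. Of the 568 starts with a mean of at least 400 CPM the median change was -2.12, and the 16 members among them had -2.18. A trended scaling takes out such a dependence on level (loess of each library on the mean log count). With it 5 of the 37 tested members rose and 9 fell, where 2508 of 18089 starts rose and 3486 fell. Of the 27 falls 11 turned positive, and the median over the other lineages was 0.01.

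**Figure D4:**
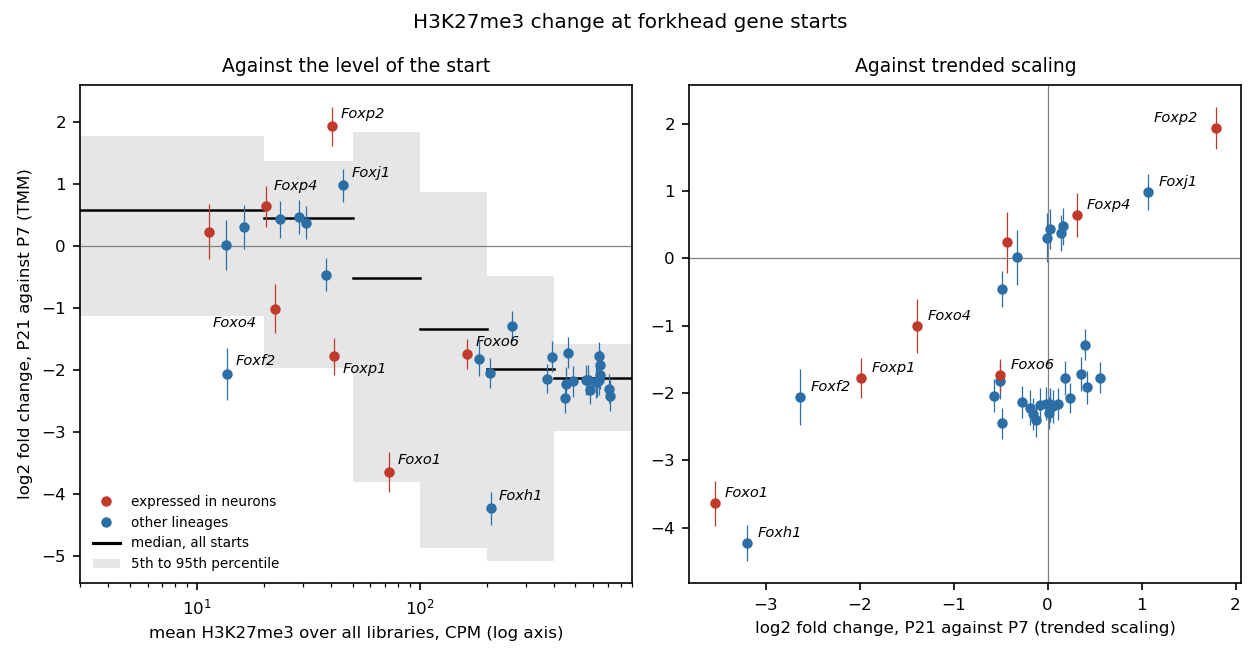
H3K27me3 log2 fold change of tested members at P21 against P7 (bars: SE), against its mean CPM (left, log axis, with the median and the 5th to 95th percentile of all starts by level) and against its change under trended scaling (right). Foxo1 and Foxh1 lie at -3.64 and -4.22, within the 5th to 95th percentile of their level, and stay below -3 under trended scaling. Members above 400 CPM lie near the median of their level.

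Foxo1, the FoxO factor held in check by insulin and IGF signalling, lost H3K27me3 counts at P21. Its counts were 7.90, 9.19, 21.3, 15.1 and 9.51 CPM in the P21 libraries, against 116.7, 108.0, 166.5, 210.9 and 142.2 CPM in the P7 libraries. Every P21 library was below every P7 library. The log2 change was -3.64 ± 0.33 (SE, edgeR adjusted p = 2.48e-13), and -3.55 under trended scaling. All starts with a mean of 50 to 100 CPM, the level of Foxo1, had a median change of -0.52 and a 5th percentile of -3.80. At P12 the libraries split by input arrangement: replicates 1 and 2, which share 1 input library, had 17.2 and 9.69 CPM, and replicates 3 and 4 had 110.9 and 72.0 CPM. For P21 against P12 the change was -2.05 ± 0.35 (edgeR adjusted p = 4.49e-05). It was -0.68 (edgeR adjusted p = 0.657) within replicates 1 and 2 and -2.57 (edgeR adjusted p = 0.000127) within replicates 3 and later.

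The H3K27me3 region over Foxo1 measured 7907 bp at P7, 7111 bp at P12 and 2401 bp at P21, where it no longer held the start itself (chr3:52265126-52267526) and had peaks in 2 of 5 libraries. H3K4me3 at Foxo1 stayed: 73.9 and 103.1 CPM at P21, against 124.1, 101.3 and 133.6 CPM at P7, with a log2 change of -0.40 ± 0.24 (edgeR adjusted p = 0.167). The H3K4me3 libraries of the stages overlap.

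Among the other FoxO members, Foxo3 differed from Foxo1 in its marks. Foxo6 and Foxo4 were, like Foxo1, called lower in H3K27me3 at P21 against P7. Foxo3, the FoxO factor with the highest H3K4me3 among members at P7 (165.2 ± 25.1 CPM, SD, n = 3), had H3K4me3 alone at every stage. Its H3K27me3 lay between 0 and 6.76 CPM in the P7 libraries. Foxo6, enriched in brain, had both marks. Its H3K27me3 counts were 21.1, 39.1, 127.1, 122.7 and 85.6 CPM in the P21 libraries, against 133.6, 146.9, 375.5, 389.6 and 218.5 CPM in the P7 libraries. All P21 libraries lay below the P7 libraries, and in both stages replicates 1 and 2 were the lowest. The log2 change of Foxo6 was -1.74 ± 0.24 (edgeR adjusted p = 2.40e-08), and -0.51 under trended scaling (edgeR adjusted p = 0.0406). Against P12 it was -1.11 ± 0.26 (edgeR adjusted p = 0.00335).

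Foxo4, an X-linked FoxO gene, was called lower in both marks at P21 against P7. H3K4me3 was 32.8 and 38.4 CPM at P21, against 67.3, 78.3 and 81.7 CPM at P7, without overlap, and its log2 change was -1.04 ± 0.31 (edgeR adjusted p = 0.0100). That call was lost under trended scaling (-0.74, edgeR adjusted p = 0.0969), with the replicate block (edgeR adjusted p = 0.0635) and without P21 replicate 1 or 2. H3K27me3 was 15.8, 2.30, 20.4, 9.69 and 27.2 CPM at P21, against 11.8, 24.0, 39.4, 60.4 and 11.98 CPM at P7. Those libraries overlap, and the log2 change was -1.01 ± 0.40 (edgeR adjusted p = 0.0368). Of 23 alternative settings, 10 kept the direction and lost the H3K27me3 call, and 1, library totals, turned the sign (0.07). The 10 include DESeq2 and both input arrangements taken alone. They also include the fits without P21 replicate 2 or 4, or without P7 replicate 2, 3 or 4. Under trended scaling the log2 change was -1.39 (edgeR adjusted p = 0.0246).

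Foxp2, a FoxP factor of Purkinje cells that is linked to speech in people, gained H3K27me3. H3K27me3 was 23.7, 50.5, 86.4, 59.2 and 84.2 CPM at P21, against 10.2, 15.0, 39.4, 13.6 and 11.98 CPM at P7. P7 replicate 3 lies above P21 replicate 1, and the other P7 libraries lie below every P21 library. The log2 change was 1.94 ± 0.31 (edgeR adjusted p = 5.11e-07) and 1.79 under trended scaling. It was 1.53 ± 0.33 (edgeR adjusted p = 0.000141) at P12 against P7, where H3K27me3 was 34.4, 25.8, 70.3 and 42.9 CPM.

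H3K4me3 at Foxp2 fell to 49.3 and 65.6 CPM at P21, against 127.3, 86.0 and 120.2 CPM at P7. The stages do not overlap, and the log2 change was -0.93 ± 0.26 (edgeR adjusted p = 0.00623). The call was lost under trended scaling (-0.52, edgeR adjusted p = 0.147), with the replicate block (edgeR adjusted p = 0.0757) and without P21 replicate 1 or 2. The H3K27me3 region at Foxp2 stopped short of the start at P7 (chr6:14897195-14900665, 3471 bp, with the start at 14901349) and covered it at P12 (5498 bp) and P21 (7373 bp). Among the other 5 Purkinje cell markers listed, Skor2 and Calb1 were called lower in H3K27me3 at P21 against P7, so the list did not move as one. Its summed H3K4me3 was 279.1 to 284.9 CPM at P21 and 313.4 to 392.1 CPM at P7, and its part in the Foxp2 result was not tested.

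Foxp1 and Foxp4, which can pair with Foxp2, kept H3K4me3 peaks. H3K27me3 at Foxp1 was 10.5, 6.89, 41.7, 28.0 and 17.7 CPM in the P21 libraries, against 55.8, 45.0, 109.0, 102.1 and 49.4 CPM in the P7 libraries. Each P21 library was below each P7 library, with a log2 change of -1.77 ± 0.30 (edgeR adjusted p = 1.27e-06) and -1.99 under trended scaling. Its P7 H3K27me3 region (chr6:99517660-99522138) did not hold the start at 99522746 and had peaks in 2 of 5 libraries. H3K4me3 at Foxp1 was 49.3 and 47.3 CPM at P21, against 71.4, 47.8 and 62.1 CPM at P7. A second annotated Foxp1 start inside the gene (chr6, 99028298) had both marks at P7 and H3K27me3 alone at P12 and P21, so starts of 1 gene differed in class.

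H3K27me3 at Foxp4 was 5.27, 16.1, 38.8, 44.1 and 23.1 CPM in the P21 libraries, against 13.5, 8.997, 15.1, 22.1 and 19.5 CPM in the P7 libraries, which overlap (log2 change 0.64 ± 0.33, edgeR adjusted p = 0.0963, and 0.31 under trended scaling). H3K4me3 at Foxp4 was 80.0 and 110.1 CPM at P21, 89.7 and 74.0 CPM at P12 and 121.8, 105.1 and 189.4 CPM at P7. It was called lower at P12 against P7 (log2 change -0.77 ± 0.26, edgeR adjusted p = 0.0311) and not at P21.

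**Figure D5:**
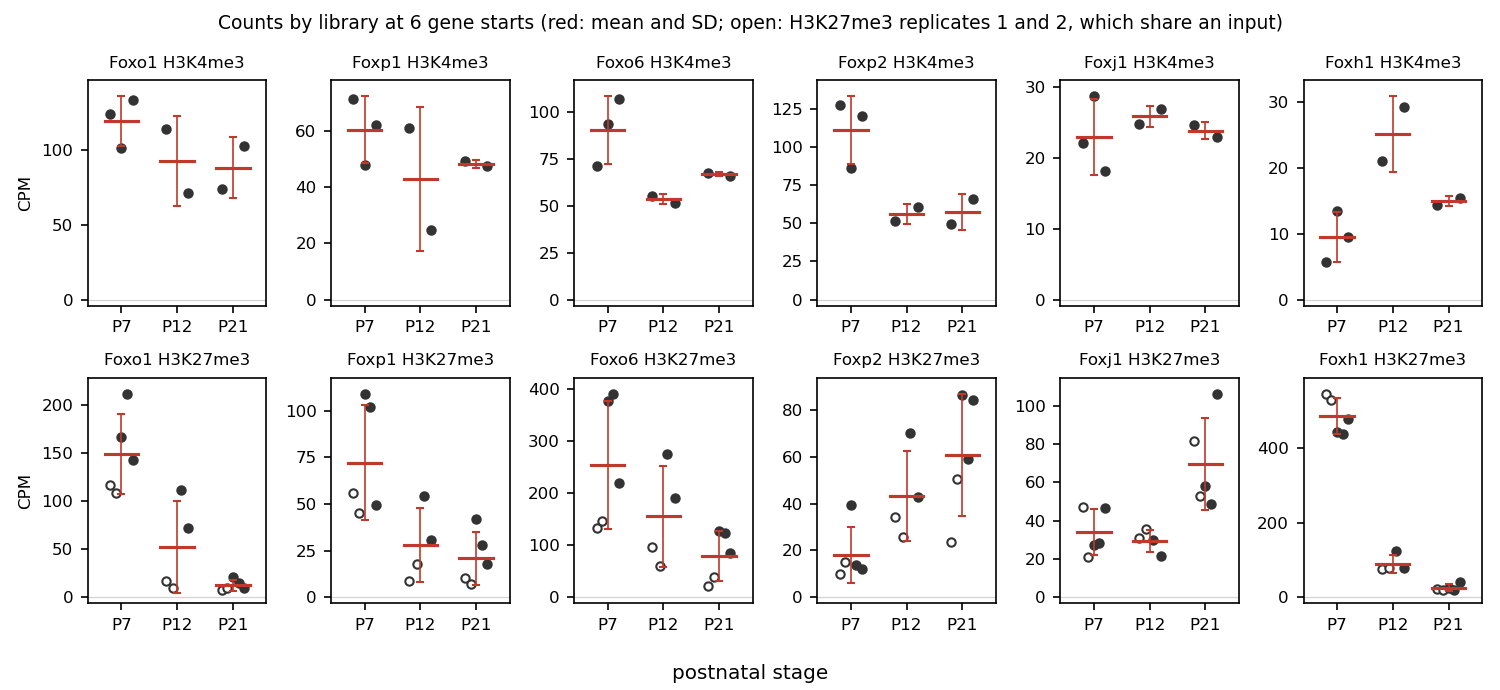
Counts (CPM) by library at 6 forkhead starts, H3K4me3 above and H3K27me3 below, at P7, P12 and P21. Red bars give the mean and SD, and open points are H3K27me3 replicates 1 and 2, which share an input. Foxo1, Foxp1, Foxo6 and Foxh1 have less H3K27me3 at P21 than at P7 in every library, Foxj1 has more in every library, and Foxp2 has more with 1 overlap.

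Foxj1 and Foxh1, both of other lineages, had the highest and the lowest H3K27me3 log2 change of their group at P21 against P7. Foxj1, the factor that switches on motile cilia genes in ependyma, gained H3K27me3. Its counts were 81.6, 52.8, 58.2, 48.4 and 106.0 CPM at P21, against 31.0, 35.5, 29.7 and 21.4 CPM at P12 and 47.4, 20.99, 27.2, 28.1 and 46.4 CPM at P7. All P21 libraries lay above all libraries of both earlier stages. The log2 change was 0.98 ± 0.27 against P7 (edgeR adjusted p = 0.00209) and 1.27 ± 0.28 against P12 (edgeR adjusted p = 0.00228). All starts with a mean of 20 to 50 CPM, the level of Foxj1, had a median change of 0.45 against P7. Their 95th percentile was 1.38 against P7 and 0.69 against P12. Under trended scaling the change against P7 was 1.07 (edgeR adjusted p = 0.000638). Against P7 it was 0.75 (edgeR adjusted p = 0.0895) within replicates 1 and 2 and 1.07 (edgeR adjusted p = 0.0453) within replicates 3 and later. Against P12 it was 0.93 (edgeR adjusted p = 0.129) within replicates 1 and 2 and 1.45 (edgeR adjusted p = 0.141) within replicates 3 and later. Over the 3 ependyma markers, of which Foxj1 is 1, summed H3K27me3 was 104.4 to 184.8 CPM at P21, against 86.6 to 113.0 CPM at P12 and 99.9 to 140.7 CPM at P7, with Ccdc153 also higher and Tmem212 lower at P21 than at P7, and their part in the result was not tested. The percentile of Foxj1 in the ranking was 86.5 to 93.7 at P21, against 56.6 to 75.0 at P12 and 61.3 to 82.3 at P7. H3K4me3 at Foxj1 was 24.6 and 23.0 CPM at P21, against 22.1, 28.7 and 18.1 CPM at P7, with no peak at any stage.

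Foxh1, a Nodal signalling factor of the early embryo, lost H3K27me3. Its counts were 21.1, 20.7, 25.2, 19.4 and 42.1 CPM at P21, against 75.7, 79.1, 124.8 and 78.9 CPM at P12 and 544.5, 527.8, 442.1, 438.0 and 477.5 CPM at P7. No libraries overlap between stages. The log2 change was -4.22 ± 0.26 at P21 against P7 (edgeR adjusted p = 6.23e-20), with -3.20 under trended scaling, and -1.80 ± 0.27 against P12 (edgeR adjusted p = 4.78e-06). Against P7, all starts with a mean of 200 to 400 CPM, the level of Foxh1, had a median of -1.98 and a 5th percentile of -5.07. The H3K27me3 region of 11199 bp at P7 ended before the start (chr15:76660362-76671560, with the start at 76671614), and none was called at P12 or P21. The start of Ppp1r16a lies 29 bp away, and an H3K4me3 region held both starts at P7 and P21. The 2 genes' H3K4me3 cannot be told apart.

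Among neural and neural crest precursor genes, Foxb1 had 202.7, 215.9, 384.3, 288.4 and 330.2 CPM of H3K27me3 at P21, against 1194, 1388, 1202, 1142 and 947.5 CPM at P7, and Foxd3, which keeps neural crest cells multipotent, had 84.2, 160.8, 390.1, 315.3 and 296.2 CPM at P21, against 813.3, 884.7, 1426, 1220 and 797.8 CPM at P7. The stages did not overlap at either gene. The log2 changes were -2.07 for Foxb1, -2.16 for Foxd3, -2.41 for Foxb2 and -2.18 for Foxd4, and under trended scaling 0.24, 0.03, -0.12 and 0.03. At Foxb1 the value under trended scaling was called higher (edgeR adjusted p = 0.0377).

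Among endoderm genes, Foxa2, a pioneer factor of gut and liver, had 215.8, 236.6, 367.8, 201.3 and 373.7 CPM at P21, against 1547, 1595, 1257, 1253 and 1174 CPM at P7, without overlap. The log2 changes were -2.29 for Foxa2, -2.22 for Foxa1, -2.14 for Foxa3 and -1.92 for Foxe1 of the thyroid. Under trended scaling they were 0.01, -0.19, -0.27 and 0.42. Foxl2 of the ovary had 44.8 to 135.9 CPM at P21, against 279.9 to 440.8 CPM at P7, a log2 change of -2.04, and was still lower under trended scaling at -0.57 (edgeR adjusted p = 0.00160).

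Among mesoderm genes, Foxq1 fell by 2.45 on the log2 scale, with 102.7, 110.3, 221.3, 163.6 and 224.2 CPM at P21, against 700.1, 830.7, 975.0, 984.1 and 821.8 CPM at P7, and was lower under trended scaling too, at -0.49 (edgeR adjusted p = 0.000155). Foxl1 fell by 2.31, Foxd1 by 2.16 and Foxc2 by 2.16, and under trended scaling these were -0.15, 0.11 and -0.01. Of the surface ectoderm genes, Foxi3 had a log2 change of -2.20, Foxe3 of the lens -1.77 and Foxi2 -1.28. Under trended scaling Foxi3 was at 0.06, whereas Foxe3 and Foxi2 were called higher, at 0.55 (edgeR adjusted p = 9.64e-06) and 0.40 (edgeR adjusted p = 0.00812). Foxp3, Foxr1, Foxr2, Foxs1, Foxi1 and Foxn1, the members with neither mark by peaks, were not called in H3K27me3 at P21 against P7.

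At P12 against P7, H3K27me3 was called higher at 1 member (Foxp2) and lower at 25, where 14.4% of all starts were higher and 22% lower. Under trended scaling 2 members were higher and 4 lower, where 1689 of 18089 starts were higher and 2875 lower. With that scaling 11 of the 25 falls turned positive. At P21 against P12, the comparison with 1 isolation method, 1 member was higher (Foxj1) and 5 were lower (Foxh1, Foxo1, Foxo6, Foxa1 and Foxq1), where 0.918% of all starts were higher and 3.06% lower. Within replicates 1 and 2 no member was higher and 16 were lower, Foxo1 not among them (edgeR adjusted p = 0.657), and within replicates 3 and later only Foxo1 and Foxh1 were called. Over all starts 760 of 14659 were lower within replicates 1 and 2, and 249 of 20834 within replicates 3 and later. With stage alone in the fit 1 member was lower (Foxh1), where 307 of 18089 starts were lower. DESeq2 called 13 members lower, and 1057 of the 5464 starts to which it gave an adjusted p. With the replicate number as a block, Foxa1 lost its call (log2 change -0.77, edgeR adjusted p = 0.0813).

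H3K4me3 moved less. At P21 against P7, 1 member was higher (Foxi1) and 2 were lower (Foxp2 and Foxo4) of 33 tested (14 of the 14 expressed in neurons and 19 of the 29 of other lineages), where 8.98% of all starts were higher and 14.4% lower. Foxi1 had 28.7 and 19.2 CPM at P21, against 5.47, 7.64 and 9.43 CPM at P7, with a log2 change of 1.68 ± 0.57 (edgeR adjusted p = 0.0233) and no peak at any stage. Its level is one where counts rose in general: starts under 20 CPM had a median change of 0.94, and Foxi1 had 0.44 (edgeR adjusted p = 0.567) under trended scaling. The calls of Foxi1, Foxp2 and Foxo4 were lost under trended scaling and without P21 replicate 1 or P21 replicate 2, and that of Foxi1 also without P7 replicate 1. Trended scaling instead called Foxk1 higher (0.70, edgeR adjusted p = 0.0227), against 0.19 with TMM.

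At P12 against P7, H3K4me3 was lower at Foxp2 (-1.03 ± 0.29, edgeR adjusted p = 0.0104) and Foxp4 and higher at 0 members, and both calls were lost without P12 replicate 1 or P12 replicate 2. Here 5.34% of all starts were higher and 9.21% lower, and 7352 starts had an unadjusted p under 0.05. At P21 against P12, 0 of 20748 starts were called by edgeR and 0 by DESeq2, and 206 had an unadjusted p under 0.05. Of members expressed in neurons that were not called at P21 against P7, Foxj2 (130.9 ± 5.15 CPM at P21 against 146.2 ± 27.1 CPM at P7) and Foxo3 (121.3 ± 20.7 CPM at P21 against 165.2 ± 25.1 CPM at P7, SD, n = 2 and 3) had the most H3K4me3. Of other lineages, Foxq1 had the most, with 59.9 ± 5.21 CPM at P21 and 58.2 ± 6.66 CPM at P7.

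Counts at some starts fell short of the peaks there. Foxm1 had an H3K4me3 peak in 3 of 3 libraries at P7, yet 0 to 0.469 CPM of H3K4me3 at P12 and P21 and 1.57 to 4.05 CPM at P7. The start of Rhno1 lies 83 bp from it. Over starts with an H3K4me3 peak at P7, those within 100 bp of another start had a median of 8.26 CPM, against 93.5 CPM at 5000 bp or more. Foxf2 had 0 to 1.91 CPM of H3K4me3 in every library and 2.30 to 6.79 CPM of H3K27me3 at P21, against 15.2 to 33.2 CPM at P7, although its H3K27me3 region measured 39202 bp at P21 and was found in 5 of 5 libraries. The window that was counted is not given, so its log2 change of -2.05 ± 0.42 (edgeR adjusted p = 5.10e-05) rests on 1 to 7 reads per P21 library. It was -2.63 (edgeR adjusted p = 1.30e-06) under trended scaling. Without that scaling the median over starts under 20 CPM was 0.59. Foxn3 had an H3K4me3 peak at its start at each stage but 5.07 to 19.1 CPM at P7.

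Genes around the FoxO factors changed in both directions. Of 22 listed regulators of FoxO, 7 of 21 tested had less H3K4me3 at P21 than at P7 and 1 more, with a median log2 change of -0.36 over the list and 0.19 over all starts, of which 14.4% were lower and 8.98% higher. The fallers with the smallest p were the acetyltransferases Ep300 (-1.14) and Crebbp (-0.98), the kinase Akt2 (-1.36) and the receptor Igf1r (-0.93). Under trended scaling 1 call was left, Akt2 at -1.26. In H3K27me3, where 23.5% of all starts were lower, 3 of 9 tested were lower, the kinases Sgk1 (-2.40), Pdpk1 (-0.94) and Pik3cb (-0.84). H3K27me3 at Sgk1, which phosphorylates FoxO3, was 14.8 ± 2.61 CPM at P21 and 75.2 ± 28.9 CPM at P7 (SD, n = 5 each).

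Of 20 listed FoxO targets, 7 of 19 tested had less H3K4me3 at P21 than at P7 and 1 more (Bbc3), where 14.4% of all starts were lower and 8.98% higher. The fallers include the cell cycle inhibitor Cdkn1b (-1.18), the repressor Bcl6 (-1.01) and the ubiquitin ligase Fbxo32 (-1.06). Under trended scaling Cdkn1b alone of the fallers stayed lower (-0.65, edgeR adjusted p = 0.0386) and Bbc3 stayed higher (1.15). In H3K27me3 2 of 10 tested were higher and 3 lower, where 25.4% of all starts were higher and 23.5% lower. Under trended scaling 2 were higher and 3 lower. The fallers were the transcription factor Klf2 (-2.90) and the death genes Bbc3 (-1.82) and Bcl2l11 (-1.23), and Gadd45a of the DNA damage response was higher (2.28). H3K27me3 at Klf2 was 92.4 ± 35.1 CPM at P21 and 671.3 ± 91.8 CPM at P7 (SD, n = 5 each).

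The FoxM1 targets are genes of the cell cycle. Of 13 tested, 9 had less H3K4me3 at P21 than at P7 and 1 more (Skp2, 1.21), where 14.4% of all starts were lower and 8.98% higher, with a median log2 change of -1.09. The smallest p were at Cenpf (-2.05), Aurkb (-1.56), Bub1b (-1.60) and Ccnb1 (-1.09), and 6 stayed lower under trended scaling. In H3K27me3 4 of 10 tested were higher (Cdc20, Cenpf, Ccnb1 and Cenpa) and 0 lower, where 25.4% of all starts were higher, with 2 higher under trended scaling. Foxm1 itself had too few counts for a test in either mark.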

How the data were processed

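H3K4me3 and H3K27me3 ChIP-seq libraries were read with 75-bp single-end sequencing, per the labels' protocols. The authors deposited whole-number counts per TSS for 21 ChIP libraries and a peak list per library, with 18 input peak lists, and each peak carries the authors' score. HOMER 4.11, ChIPseeker 1.30.3 and mm10 are named, with no role, per the submitters' processing notes. No aligner, counter or counting window is given in the sources used here.

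Counts were tested in edgeR 4.0.16 (R 4.3.3) with robust quasi-likelihood fits over the whole table, after filterByExpr and TMM scaling, with Benjamini-Hochberg adjustment at 0.05. The 3 stages of a mark shared 1 fit, with the input arrangement (replicates 1 and 2 against later ones) as a covariate for H3K27me3. This left 20748 TSS for H3K4me3 and 18089 for H3K27me3. SE is the log2 change over the root of its F value. Of the count table's gene IDs, 23985 matched a chromosome record of GRCm38.p6, the assembly behind mm10, and 60 did not. Consensus peaks, widths and promoters were described without tests. The procedure was tested on simulated data. Alternatives were library totals, trended scaling (loess span 0.3), no low count filter, DESeq2 1.42.0, stage alone, the replicate block, each input arrangement, each library left out, and other peak rules.

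Replicate numbers in the labels were checked for pairing. In H3K27me3 the deviations of same-numbered P12 and P21 libraries correlated at 0.32 to 0.62 in all 4 pairs. Among replicates 1 and 2, which share an input within a stage, differently numbered libraries correlated at 0.33 and 0.48. The check therefore cannot tell pairing by number from the input arrangement there. Replicates 3 and 4 correlated at 0.62 and 0.61 with their own number, and at 0.22 and 0.28 with each other's.

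Neuronal members were described by library, and some results are not reported here. From each other list the members called at P21 against P7 were described, at most 4 per list and mark by smallest p, with up to 2 uncalled members of the highest count, and up to 4 called genes of each companion list were named. The members and lists were chosen with earlier results of these data known. Intervals between libraries cover only the spread seen here, and total counts as low as 264093 limit precision at weak starts.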

Additional observations from a re-analysis of the deposited data

Results flagged for a closer look

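Of 129 groups of 4 or 5 H3K27me3 libraries checked for 1 library far from the others, 8 were picked out, and chance alone would pick about 1 in 20. At P12, replicate 3 was highest at Foxh1 (124.8 CPM, the others 75.7 to 79.1 CPM) and at Foxl2 (217.8 CPM, the others 118.8 to 126.1 CPM). At P12, replicate 4 was highest at Foxk2 (18.9 CPM, the others 6.88 to 8.07 CPM) and at Foxs1 (17.1 CPM, the others 12.1 to 12.9 CPM). At P21, replicate 5 was highest at Foxh1 (42.1 CPM, the others 19.4 to 25.2 CPM) and replicate 2 at Foxm1 (2.30 CPM, from 1 read, the others 0). At P7, replicate 3 was highest at Foxp2 (39.4 CPM, the others 10.2 to 15.0 CPM) and replicate 4 at Foxj3 (7.66 CPM, the others 0 to 1.69 CPM).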

How the results depend on the processing

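Under the alternatives, 401 counts stayed within 1.5 times the value reported and 58 did not. Of the values of called members, 1324 kept direction and call, 112 lost the call and 24 turned sign. The cause was not tested for any of these.

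For H3K4me3 at P21 against P7 (1 member higher, 2 lower), library totals gave 3 higher, DESeq2 0 higher, trended scaling 0 lower, and the replicate block 0 higher and 0 lower. At P12 against P7 (0 higher, 2 lower), library totals gave 1 higher and 1 lower, no low count filter 1 higher, DESeq2 1 lower, trended scaling 0 lower and the replicate block 0 lower. Same-numbered H3K4me3 libraries correlated at -0.30 to 0.07. With 2 libraries at P12 and 2 at P21, the deviations within a stage mirror each other, so this check cannot decide whether libraries were paired. With the block 274 TSS were higher and 1036 lower at P21 against P7, against 1864 and 2980 without it.

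For H3K27me3 at P21 against P7 (2 higher, 27 lower), library totals gave 10 higher, trended scaling 5 higher and 9 lower, and replicates 1 and 2 alone 1 higher. At P12 against P7 (1 higher, 25 lower), library totals gave 9 higher, no low count filter 2 higher, trended scaling 2 higher and 4 lower, and replicates 3 and later 2 higher and 14 lower. At P21 against P12 (1 higher, 5 lower), trended scaling gave 2 higher, DESeq2 13 lower, stage alone 1 lower, replicates 1 and 2 alone 0 higher and 16 lower, and replicates 3 and later 0 higher and 2 lower. With the replicate block Foxa1 at P21 against P12 and Foxo4 at P21 against P7 lost their H3K27me3 calls, Foxf2 at P12 against P7 gained one, and no other member's H3K27me3 call changed.

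The median over all TSS in H3K27me3 at P21 against P7 was 0.34 with TMM, 0.08 with trended scaling and 1.42 with library totals. Under trended scaling the members that turned sign at P21 against P7 were Foxe1 (0.42), Foxd4 (0.029), Foxd3 (0.028), Foxf1 (0.36), Foxd1 (0.11), Foxa2 (0.012), Foxc1 (0.19), Foxi3 (0.059), Foxi2 (0.40), Foxe3 (0.55) and Foxb1 (0.24). At P12 against P7 they were Foxe1 (0.44), Foxn4 (0.027), Foxd3 (0.23), Foxf1 (0.44), Foxd1 (0.15), Foxa1 (0.28), Foxc1 (0.31), Foxi3 (0.13), Foxe3 (0.37), Foxo6 (0.39) and Foxb1 (0.24). With library totals Foxo4 at P21 against P7 was 0.074 and Foxo6 at P12 against P7 was 0.33.

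With the peaks at or above the median score of each list, 6, 1 and 1 members expressed in neurons had H3K4me3 at P7, P12 and P21 (13, 9 and 11 reported), and 3, 1 and 1 members had both marks (12, 4 and 3 reported). A peak in every library gave 5, 2 and 0 with both marks, a peak in at least 1 library 7 at P12 and 6 at P21, and leaving out peaks over the input 2 at P12 and 1 at P21.

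Leaving out 1 library at a time, H3K4me3 gave 0 to 7 members higher and 0 to 5 lower at P21 against P7, and 0 to 5 higher and 0 to 5 lower at P12 against P7. H3K27me3 gave 2 to 3 higher and 25 to 28 lower at P21 against P7, 1 higher and 24 to 25 lower at P12 against P7, and 1 higher and 3 to 9 lower at P21 against P12. Both marks were found at 9 to 12 members at P7, 3 to 5 at P12 and 2 to 6 at P21, and H3K4me3 at 13, 9 to 11 and 11 to 12 members expressed in neurons.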
